A study of Homo sapiens with 6 samples.

Results

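The genes described here are 10 of the 17687 genes with a named probe set on the array: the chemokines CCL17, CCL22, CCL18, CCL24 and CCL26 and the cytokine receptor chains IL4R, IL13RA1, IL31RA, OSMR and CRLF2. They were chosen by symbol, with earlier results of these data known, because their products act in allergic inflammation. The study took its miRNAs from an analysis of plasma in atopic dermatitis and allergic conjunctival disease. Each has 1 probe set except CRLF2, which has 2. The RNA came from 6 transfected cultures of THP-1, an established line of human monocytic leukaemia cells. All cultures were first kept for 2 days with 100 ng/ml PMA, a phorbol ester that turns these cells macrophage-like. They then received for 24 h, with the same lipid reagent, the mimic of miR-151a-3p, miR-130a-3p, miR-146a-5p, let-7e-5p or let-7d-3p, or a negative control mimic (mimic NC). A mimic is a synthetic duplex that supplies the cell with a given miRNA. Each mimic had 1 array, so there are no replicates and no tests, and every fold describes 2 cultures.

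In allergic tissue, the cytokines IL-4 and IL-13 act on macrophages, epithelium and lymphocytes through receptors that share the IL4R chain, and the transcription factor STAT6 passes the signal on. Macrophages and dendritic cells answer with chemokines: CCL17 and CCL22 bind CCR4 on Th2 lymphocytes, CCL18 attracts lymphocytes to the skin, and the eotaxins CCL24 and CCL26 bind CCR3 on eosinophils. IL-31, the itch cytokine, signals through IL31RA paired with OSMR, and TSLP, an alarm signal of damaged epithelium, through CRLF2 paired with IL7R.

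The mature sequences of 3 of the miRNAs are shown since the seed, bases 2 to 8 in capitals, is the part by which a miRNA mainly selects the mRNAs it lowers. They are RefSeq entries on build GRCh38.p14, plus strand, at chr9:94178895-94178916 for let-7d-3p, chr19:51692793-51692814 for let-7e-5p and chr5:160485372-160485393 for miR-146a-5p.
let-7d-3p: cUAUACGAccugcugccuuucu
let-7e-5p: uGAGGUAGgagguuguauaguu
miR-146a-5p: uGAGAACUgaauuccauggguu
The 3 seeds differ from each other. let-7d-3p comes from the opposite arm of a let-7 hairpin and does not carry the let-7 seed shown for let-7e-5p.

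Signals are log2 values per probe set. Array medians lay between 6.92 and 6.95, so a level near 12 is a bright probe set and a level near 4 a dim one. As background served 5.39, the 95th percentile of the 349 olfactory receptor probe sets, which belong to genes used mainly in the nose. All 8 macrophage markers examined, such as CD14, CD68 and CSF1R, were above background on every array, and all 5 epithelial and keratinocyte markers were below it on every array. The labels describe the line as lymphocyte-like. Of the T cell markers CD3D and CD2 were below background on every array and CD3E was above it, and of the B cell markers MS4A1 was below while CD79A, CD79B and PAX5 were above.

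Of the 10 genes, 6 were above background on all 6 arrays (CCL22, CCL18, IL4R, IL13RA1, OSMR and CRLF2), CCL17 was above it on 3 and IL31RA on 2. The eotaxins CCL24 and CCL26 were above it on none. In the 50 comparisons of a gene under a mimic with the same gene under mimic NC, 5 reached 1.5-fold, 0 reached 2-fold and 28 stayed within 1.2-fold. The 5 were IL31RA with let-7d-3p and with miR-130a-3p (higher), OSMR with let-7e-5p (higher), CCL17 with miR-130a-3p (lower) and CRLF2 with miR-151a-3p (lower). Only those of OSMR and CRLF2 had both arrays above background. The largest difference with both arrays above background was that of CRLF2, 1.81-fold.

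**Figure D1:**
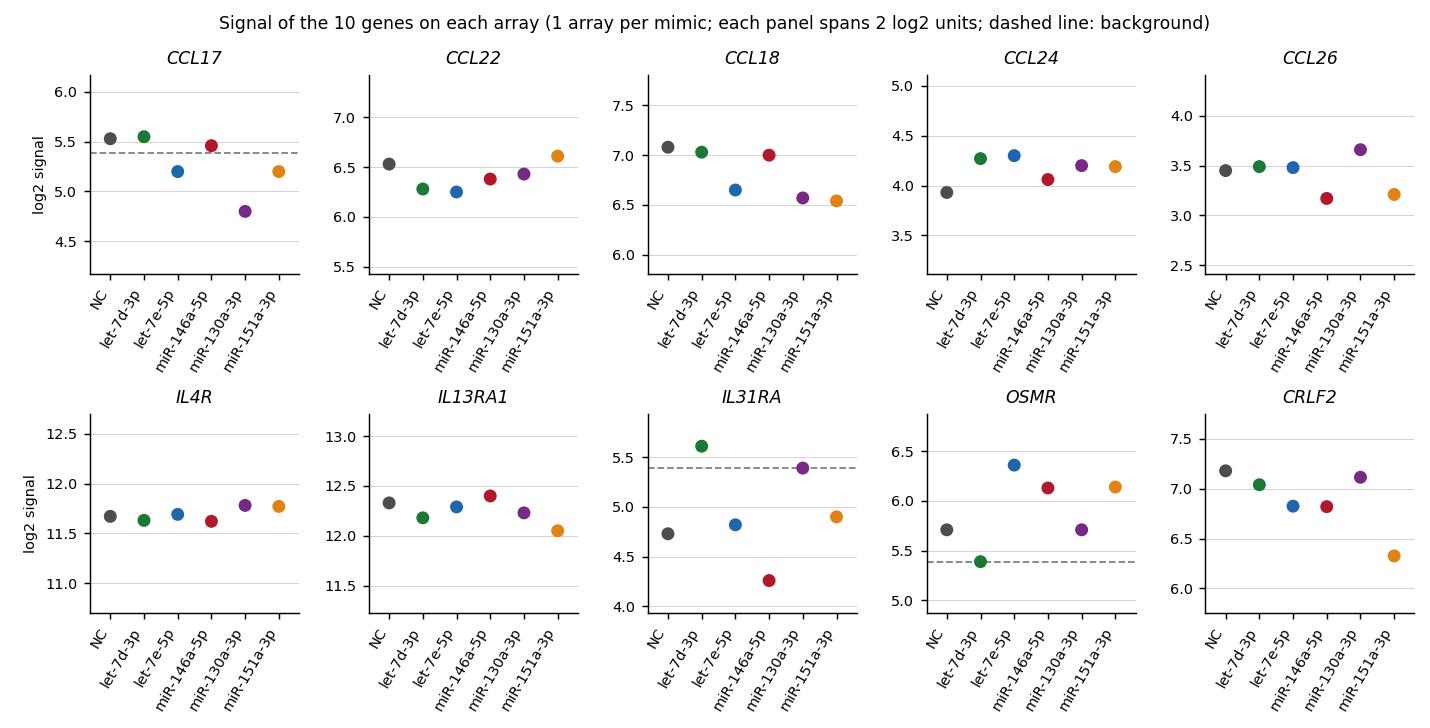
Log2 signal of each of the 10 genes (y axis, each panel spanning 2 log2 units) on the 6 arrays (x axis); a point is 1 array, and the dashed line is the background of 5.39 where it falls inside the panel. IL4R and IL13RA1 are nearly level, CRLF2 is lowest with miR-151a-3p, and IL31RA and CCL17 lie around background.

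Read by mimic, 1 of the 10 genes was past 1.5-fold with let-7d-3p, where 9.48% of all named genes were. It was 1 of 10 with miR-151a-3p against 10.9% of all genes, and 2 of 10 with miR-130a-3p against 9.09%. With let-7e-5p it was 1 of 10 against 7.07%, and with miR-146a-5p 0 of 10 against 8.22%. These shares are near those of all genes, so the counts mark the 10 genes out with none of the mimics. Their median log2 ratio was between -0.08 and -0.01, while the median of all named genes was between -0.01 and 0.01. Dim genes reached 1.5-fold more often than others. Of the genes whose mean over the arrays was not above background, between 12% and 17.7% did so, and of those above background 4.39% to 7.21%. The comparisons all share the mimic NC array, so an odd value there would shift a gene the same way in all 5.

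**Figure D2:**
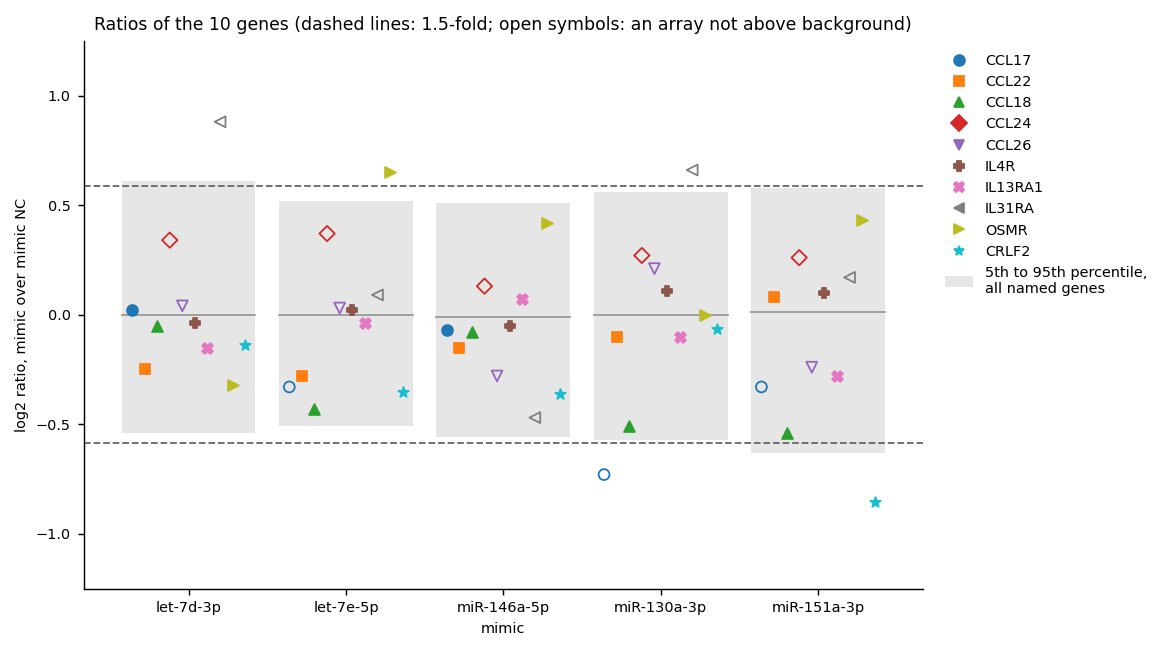
Log2 ratio of each of the 10 genes over mimic NC (y axis) for the 5 mimics (x axis), 1 symbol per gene; open symbols have at least 1 of the 2 arrays not above background, grey bars run from the 5th to the 95th percentile of all named genes with a line at their median, and dashed lines mark 1.5-fold. Most symbols lie within the grey bars, and the filled symbols beyond 1.5-fold are OSMR with let-7e-5p (0.65) and CRLF2 with miR-151a-3p (-0.855).

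Among the chemokines, the ligands of CCR4 were low. CCL22 read, from high to low, 6.61 with miR-151a-3p, 6.53 with mimic NC, 6.43 with miR-130a-3p, 6.38 with miR-146a-5p, 6.28 with let-7d-3p and 6.25 with let-7e-5p. It was thus above background throughout, with the 6 arrays within 1.28-fold of each other; 78.1% of all named genes had a range at least as wide. CCL17, which lies on chromosome 16 with only CX3CL1 between it and CCL22, was highest at 5.55 with let-7d-3p, followed by 5.53 with mimic NC, 5.46 with miR-146a-5p, 5.20 with let-7e-5p, 5.20 with miR-151a-3p and 4.80 with miR-130a-3p. Its highest arrays barely cleared background and the array of miR-130a-3p was lowest, by 0.40 below the next. The measured ratio there was -0.73, but that array was not above background. Counted from background, the signal can only be called at least 1.10-fold lower than with mimic NC on these single arrays. The same bound of 1.10-fold held with let-7e-5p and miR-151a-3p, whose arrays were also not above background. The receptor of both, CCR4, is found on T cells and was below background on all 6 arrays.

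CCL18, which macrophages secrete after exposure to IL-4, read, from high to low, 7.08 with mimic NC, 7.03 with let-7d-3p, 7.00 with miR-146a-5p, 6.65 with let-7e-5p, 6.57 with miR-130a-3p and, lowest, 6.54 with miR-151a-3p. The arrays fell into a higher set of 3 (mimic NC, let-7d-3p and miR-146a-5p) and a lower set of 3. The control was the highest of all, and the lower set was below it by 1.45-fold with miR-151a-3p, 1.42-fold with miR-130a-3p and 1.35-fold with let-7e-5p. None of these reached 1.5-fold, and a range as wide as that of CCL18 (0.54) was seen in 52.8% of all named genes. Against the median of the other 4 mimics instead of the control, CCL18 was 1.34-fold higher with let-7d-3p and 1.31-fold higher with miR-146a-5p.

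The eotaxins CCL24 and CCL26, neighbours on chromosome 7, had no measurable level in these cells. CCL24 was between 3.93 with mimic NC and 4.30 with let-7e-5p, and CCL26 ran from 3.17 with miR-146a-5p up to 3.66 with miR-130a-3p. Both stayed more than 1 log2 unit under background on every array, so no fold is given.

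The receptor chains for IL-4 and IL-13 were bright and hardly varied. IL4R, the chain that binds IL-4 and joins both types of IL-4 receptor, was highest at 11.78 with miR-130a-3p, followed by 11.77 with miR-151a-3p, 11.69 with let-7e-5p, 11.67 with mimic NC, 11.63 with let-7d-3p and 11.62 with miR-146a-5p. All 6 arrays lay within 1.12-fold, a range that 98.0% of all named genes matched or exceeded. IL13RA1, which binds IL-13 and completes the receptor for it, read, from high to low, 12.40 with miR-146a-5p, 12.33 with mimic NC, 12.29 with let-7e-5p, 12.23 with miR-130a-3p, 12.18 with let-7d-3p and 12.05 with miR-151a-3p. Its arrays lay within 1.27-fold, with the lowest, miR-151a-3p, 1.21-fold below mimic NC. IL2RG, the common gamma chain that IL4R uses on blood cells, ranged from 11.83 with miR-130a-3p to 12.32 with miR-151a-3p, against 12.17 with mimic NC. IL13RA2, which takes up IL-13 mostly as a decoy, was not above background with mimic NC (3.93) and reached the background level (5.39) with let-7d-3p alone.

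OSMR, the chain shared by the receptors for IL-31 and oncostatin M, was near the lower limit of detection. It was highest at 6.36 with let-7e-5p, followed by 6.14 with miR-151a-3p, 6.13 with miR-146a-5p, 5.71 with mimic NC, 5.71 with miR-130a-3p and 5.39 with let-7d-3p. Thus 3 mimics were higher than the control, miR-130a-3p equalled it, and let-7d-3p was lower and at the background level. With let-7e-5p OSMR was 1.57-fold higher than mimic NC, a ratio matched or exceeded by 2.66% of all named genes in that comparison. Above the median of the other 4 mimics it was 1.36-fold. Interferon-stimulated genes, 23 with a probe set, were also lowest with let-7d-3p (median log2 ratio -0.63) and were higher with let-7e-5p (0.33) and miR-146a-5p (0.43), but lower with miR-151a-3p (-0.39), where OSMR was 1.35-fold higher. Their part in the level of OSMR was not tested. IL6ST, the gp130 chain that joins OSMR to bind oncostatin M, ranged from 10.25 with miR-130a-3p to 10.71 with miR-151a-3p, against 10.35 with mimic NC.

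IL31RA, the chain that binds IL-31, had the widest range of the 10 genes, 1.35 log2 units, but around background. It read, from high to low, 5.61 with let-7d-3p, 5.39 with miR-130a-3p, 4.90 with miR-151a-3p, 4.82 with let-7e-5p, 4.73 with mimic NC and 4.26 with miR-146a-5p. The array of let-7d-3p was above background by 0.22, that of miR-130a-3p was at it, and the control was below. Counted from background, IL31RA was at least 1.17-fold higher with let-7d-3p, and with miR-130a-3p no difference could be measured. Of the genes that were likewise not above background on average, 4.22% had a range at least as wide. The chains of the IL-31 receptor did not share an order: let-7d-3p gave the highest IL31RA and the lowest OSMR. The ligand IL31 was below background on all 6 arrays.

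CRLF2, the chain that binds TSLP, gave the clearest difference. It lies in the region that the X and Y chromosomes share, and the array carries a probe set assigned to each. The X probe set was highest at 7.18 with mimic NC, followed by 7.14 with miR-130a-3p, 7.07 with let-7d-3p, 6.90 with miR-146a-5p, 6.83 with let-7e-5p and 6.19 with miR-151a-3p. The Y probe set, on the same arrays in the order of the X probe set, read 7.18, 7.09, 7.01, 6.74, 6.82 and 6.46. Both probe sets were lowest with miR-151a-3p and highest with mimic NC, and they differed from each other by at most 0.27 on any array, that of miR-151a-3p. Both read the same gene in the same cultures, so their likeness is not an independent repeat of the difference. As the mean of the probe sets CRLF2 with miR-151a-3p was 1.81-fold lower than the control (6.325 against 7.18), by 1.99-fold on the X probe set and 1.65-fold on the Y probe set. The lowest of the other 5 arrays, miR-146a-5p, was at 6.82, and below the median of the other 4 mimics CRLF2 was 1.52-fold lower. In this comparison 1.86% of all named genes were as far below the control, and 0.958% of those whose mean was above background. With miR-146a-5p and let-7e-5p CRLF2 was 1.28-fold lower each, and with let-7d-3p and miR-130a-3p its log2 ratios were -0.14 and -0.065. The summed log2 level of the 4 B cell markers was also lowest there, running from 24.36 with miR-151a-3p to 26.09. CD79A (6.68 against 7.12) and CD79B (5.87 against 6.81) were lowest there. PAX5 (7.61 against 7.75) was not, and MS4A1 was below background on every array. All 4 T cell markers read higher there than in the control, but only 1, CD3E (5.87 against 5.80), had both arrays above background. The part of these markers in the result was not tested. The 8 macrophage markers summed to between 108.51 and 110.05, with CD14 1.57-fold higher with miR-151a-3p. In a culture, fewer cells that express the gene and less of its RNA in each cell cannot be told apart.

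How far probe sets of the same gene can disagree was seen in the 15 genes above background that have several, CRLF2 among them. The log2 ratios of their probe sets differed by a median of 0.21 and by up to 1.2 over the 5 comparisons. This spread covers the probes and not the cultures, which were not repeated.

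**Figure D3:**
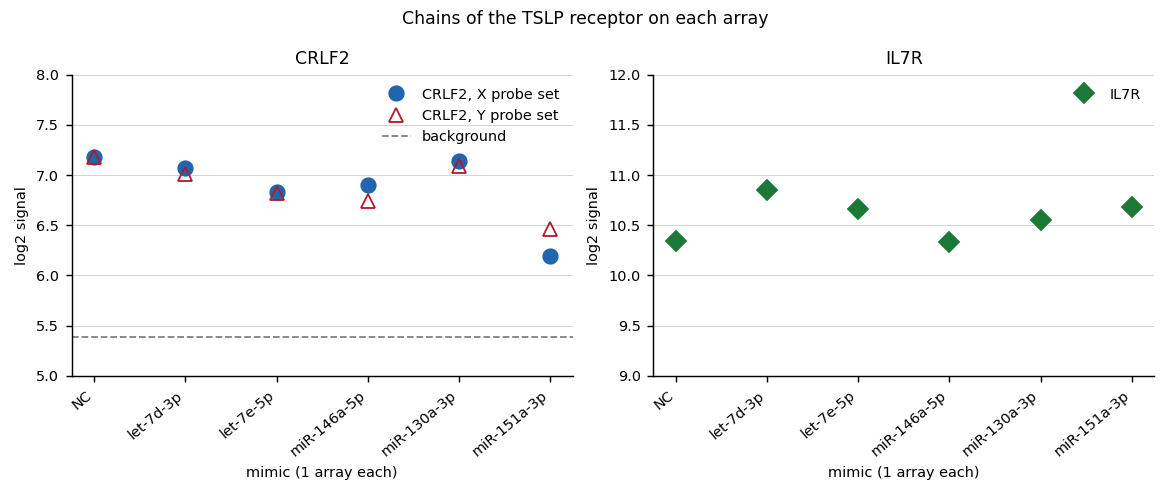
Log2 signal (y axis) of the chains of the TSLP receptor on the 6 arrays (x axis), with both probe sets of CRLF2 on the left and IL7R on the right; a symbol is 1 probe set on 1 array, both panels span 3 log2 units, and the dashed line is background. Both CRLF2 probe sets are lowest with miR-151a-3p (6.19 and 6.46), where IL7R (10.68) is not.

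The partner of CRLF2, IL7R, did not follow it. It read, from high to low, 10.85 with let-7d-3p, 10.68 with miR-151a-3p, 10.66 with let-7e-5p, 10.55 with miR-130a-3p, 10.34 with mimic NC and 10.33 with miR-146a-5p. It was therefore 1.27-fold higher than the control on the array where CRLF2 was lowest, and its own highest array was that of let-7d-3p at 1.42-fold. CSF2RA, the chain for GM-CSF that lies next to CRLF2 in the same shared region, was 1.38-fold higher with miR-151a-3p (8.535 against 8.075). TSLP itself was below background on every array, between 3.64 and 4.28.

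The genes nearest in pattern were sought for OSMR and CRLF2. Among 4074 genes above background with a range of at least 1.5-fold, 53 (1.3%) had a Pearson correlation above 0.9 with CRLF2 over the 6 arrays. The nearest were ZNF235, a zinc finger protein (r = 0.999, from 7.30 with mimic NC to 6.61 with miR-151a-3p), ARPIN, an inhibitor of actin branching (r = 0.98), and HYCC2 (r = 0.98). For OSMR 44 genes (1.08%) passed 0.9, led by SEPTIN14P20 (r = 0.99), the antiviral ubiquitin ligase TRIM56 (r = 0.99, from 9.56 with let-7d-3p to 10.48 with let-7e-5p) and BARD1, the partner of BRCA1 (r = 0.98). These are descriptions over 6 arrays that share the mimic NC culture and carry no test. The other 8 genes were too dim or too level for such a comparison.

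Other genes of type 2 immunity were examined as lists, which were also chosen with earlier results of these data known. Of 11 cytokines with a probe set, among them IL4, IL5, IL13, IL25, IL31, IL33 and TSLP, 9 were below background on all 6 arrays. LIF was above it on every array, and OSM, which encodes oncostatin M, on all but that of miR-146a-5p (5.31). No cytokine above background on both arrays was past 1.5-fold with any mimic.

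The partner chains of these receptors were 11, of which 6 were above background throughout. The median log2 ratio over all 11 was above 0 with every mimic, between 0.095 with miR-146a-5p and 0.34 with miR-151a-3p, while that of all genes stayed within 0.01 of 0. It includes dim chains such as IL13RA2 (3.93) and IL17RB (3.84), which were lowest with mimic NC, the array all 5 comparisons share. With miR-130a-3p, among the 6 chains above background throughout, IL2RG (-0.34), IL6ST (-0.10) and IL5RA (-0.03) read lower than the control. IL7R (0.21), CSF2RB (0.08) and CSF2RA (0.41) read higher. With both arrays above background, 1 was past 1.5-fold, and it was higher: IL5RA, the chain that binds IL-5, read 6.70 with let-7d-3p and between 5.93 and 6.05 on the other 5 arrays, and was 1.61-fold above mimic NC. Of all named genes above background on both of those arrays 5.12% were past 1.5-fold.

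The 17 genes of JAK-STAT signalling downstream had medians within 0.04 of 0. STAT6 itself was bright and level, at 11.99 with mimic NC and no lower than 11.75, its value with miR-130a-3p. JAK3, the kinase that binds IL2RG, was 1.52-fold higher with let-7d-3p (7.56 against 6.96). JAK2, which serves the TSLP receptor among others, read 11.74 with miR-146a-5p, 1.64-fold above the control (11.03), and was lowest with miR-130a-3p (10.74). They made 1 of 12 list genes with both arrays above background for each of these mimics, where the share over all named genes was 5.12% with let-7d-3p and 4.37% with miR-146a-5p, and with the other mimics it was 0 of 12.

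Genes that IL-4 and IL-13 induce in human macrophages, 21 with a probe set, had medians from -0.21 with miR-151a-3p to 0.09 with let-7d-3p, and they went both ways. With both arrays above background, 3 of 14 were past 1.5-fold with let-7d-3p, where 5.12% of all named genes so measured were. It was 2 of 14 with miR-130a-3p against 5.42%, 1 of 13 with miR-151a-3p against 6.2%, and 0 of 14 with miR-146a-5p against 4.37% and let-7e-5p against 3.89%. With let-7d-3p, CCL23, a chemokine for monocytes, was 1.74-fold higher (6.94 against 6.14), FN1, fibronectin, 1.77-fold lower (8.54 against 9.36) and IL1RN, the antagonist of the IL-1 receptor, 1.53-fold lower. PDCD1LG2, which encodes the inhibitory ligand PD-L2, was 2.01-fold lower with miR-130a-3p (8.57 against 9.58), and the other 5 arrays lay between 9.26 and 9.96. PPARG, a lipid-sensing nuclear receptor, was below the control (12.30) with all 5 mimics, at 11.84 to 12.10. CD1A, which presents lipid antigens on dendritic cells, was higher than the control with all 5 mimics. It was 1.87-fold higher with miR-151a-3p (7.05 against 6.15) and 1.64-fold higher with miR-130a-3p. The control array was thus the lowest of the 6 for CD1A and the highest for PPARG. Against the median of the other 4 mimics, CD1A was 1.44-fold higher with miR-151a-3p and 1.26-fold higher with miR-130a-3p. Both were under 1.5-fold. The lectin CD209, in contrast, stayed between 12.83 and 12.99, and FCER2, the low-affinity IgE receptor, between 9.65 and 10.08.

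Of 7 other chemokines that draw eosinophils, basophils or Th2 cells, all 7 read lower with miR-151a-3p than in the control, with a median log2 ratio of -0.26. Of all named genes, 47.9% had a log2 ratio of -0.01 or lower there. Among the 7, CCL11 (4.32 against 4.33) was below background on every array. CCL7 (5.33 against 5.39) and CCL5 (15.98 against 16.07) also differed little. With the other mimics 3 or 4 of the 7 read higher. CCL28, which attracts eosinophils and lymphocytes to mucosal surfaces, was 1.69-fold lower with miR-151a-3p (8.07 against 8.83). It read lower than the control with every mimic, and the other 4 mimics lay between 8.37 with miR-130a-3p and 8.68 with let-7d-3p. The control array, which all 5 comparisons share, was thus the highest of the 6 for CCL28. CCL1, the ligand of CCR8, was 1.54-fold lower with miR-151a-3p (5.77 against 6.39) and 1.62-fold lower with miR-130a-3p (5.69). CCL7, a ligand of CCR3, was 1.61-fold higher with let-7e-5p (6.08 against 5.39) and 1.42-fold higher with miR-146a-5p, though its control array was at the background level. CCL8, a monocyte attractant, read 9.18 in the control, 8.39 with let-7d-3p (1.73-fold lower), 10.84 with miR-146a-5p (3.16-fold higher) and 10.90 with let-7e-5p (3.29-fold higher). CCL5 was level, between 15.95 and 16.14. With both arrays above background, 2 of 5 of these chemokines were past 1.5-fold with miR-151a-3p, where 6.2% of all named genes so measured were. It was 1 of 6 with miR-130a-3p against 5.42%, and 1 of 6 with miR-146a-5p against 4.37%. With let-7e-5p it was 2 of 6 against 3.89%, and with let-7d-3p 1 of 5 against 5.12%. Of 8 receptors for these chemokines CCR1, CXCR3 and ACKR2 were above background on every array and CCR4, CCR8 and CCR10 on none, and none was past 1.5-fold with both arrays above background.

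CCL17 and CCL22 are also made by maturing dendritic cells, and 12 genes of that state were read beside them. With both arrays above background, 2 of 10 were past 1.5-fold with let-7d-3p (5.12% of all named genes), 2 of 10 with let-7e-5p (3.89%), 3 of 10 with miR-146a-5p (4.37%), 1 of 10 with miR-130a-3p (5.42%) and 2 of 11 with miR-151a-3p (6.2%). CD274, which encodes PD-L1, was past 1.5-fold with all 5 mimics, in comparisons that all share the control array. It read 7.38 in the control and 6.44 with let-7d-3p, which is 1.92-fold lower. It was 1.72-fold lower with miR-151a-3p and 1.53-fold lower with miR-130a-3p, but 1.67-fold higher with let-7e-5p and 1.65-fold higher with miR-146a-5p. LAMP3, a lysosomal protein of mature dendritic cells, was 1.97-fold lower with let-7d-3p, 1.65-fold lower with miR-151a-3p and 1.73-fold higher with miR-146a-5p. IDO1, which breaks down tryptophan, was 1.96-fold higher with miR-146a-5p and 1.79-fold higher with let-7e-5p. CD83 (10.53 to 10.78), a maturation marker, was level, as CCL22 was. CD274 is itself known to be induced by interferon, and its directions were those of the interferon-stimulated median with all 5 mimics. LAMP3 shared these directions except with let-7e-5p (7.63 against 7.73), IDO1 except with miR-151a-3p (7.10 against 6.76) and CCL8 except with miR-130a-3p (9.47 against 9.18). A link to interferon was not tested for any of them.

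**Figure D4:**
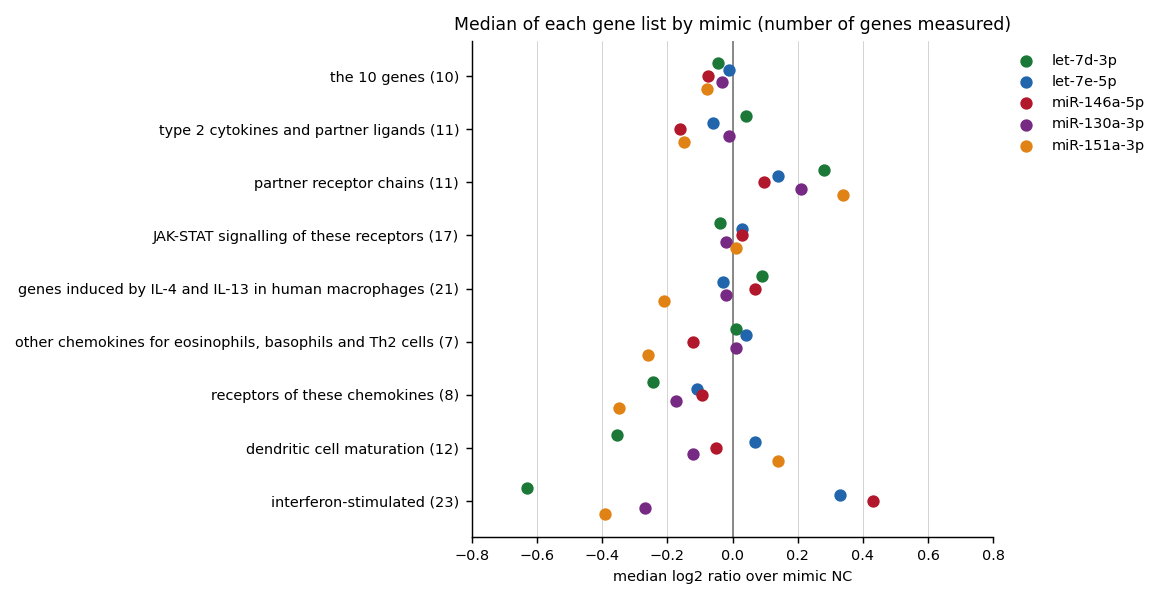
Median log2 ratio over mimic NC (x axis) of each gene list (y axis, with the number of genes measured); a point is 1 mimic. The 10 allergy-related genes stay between -0.08 and -0.01, whereas the interferon-stimulated genes spread from -0.63 to 0.43.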

How the data were processed

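The authors deposited 1 table of log2 signals per probe set (21448 probe sets, Human Clariom S array), with values from 1.88 to 17.99 in at most 2 decimals. The submitters' processing notes name RMA and Transcriptome Analysis Console 4.0. RMA subtracts background, equalizes arrays and summarizes probes, so differences that affect a whole array are removed and small folds may be compressed; which arrays were processed as 1 set is "not given in the sources used here". Groups were taken from the titles, because the treatment text of all 6 samples speaks of let-7a-5p; the "2" in the title of the control is not explained. The labels give Trizol for RNA extraction and the paper a column kit.

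Symbols came from the platform annotation (17709 probe sets with 1 symbol, 3739 with none) and all matched RefSeq by Entrez identifier. Several probe sets of a gene (20 genes) were averaged. Log2 signals were subtracted, mimic minus mimic NC, with no test, and called at 1.5-fold; a gene with 1 array not above background was given as a bound counted from background. Calculations used Python 3.11.15, pandas 2.3.3, numpy 2.4.6 and statsmodels 0.14.6, and were tested on simulated data. The number of arrays limits the precision. The members and lists were chosen with earlier results of these data known. Named genes were the 10 genes, list genes past 1.5-fold or at either end of a list, and the 3 genes nearest in pattern to a member; a few level genes (such as CCL5, CD83, CD209, FCER2 and STAT6) and receptor partners were picked after their values were seen. Some genes of the lists were not analysed here. Marker lists of fibroblasts, mast cells and eosinophils were also read: 2 of 4, 1 of 4 and 0 of 4 genes were above background on every array. Of 12 NF-kB inflammatory genes the median log2 ratio was between 0.02 and 0.29. Alternatives were the median of the other 4 mimics as comparator, thresholds of 2-fold and 1.3-fold, a second quantile normalization, a pseudocount of 32, signals raised to background, centring on array medians, a lowess fit (span 0.3) subtracted, genes above background only, and the brightest probe set.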

Additional observations from a re-analysis of the deposited data

How the results depend on the processing

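No paired analysis was possible because each mimic had 1 array. The count of the 10 genes past 1.5-fold was 2 with miR-130a-3p, 0 with miR-146a-5p and 1 with each of the others, and a second quantile normalization, centring on medians, a subtracted lowess fit and the brightest probe set changed none of these counts. Against the median of the other 4 mimics the count was 2 with let-7d-3p (IL31RA higher, OSMR lower), 1 with miR-146a-5p (IL31RA lower) and 0 with miR-130a-3p or let-7e-5p. With a pseudocount of 32 it was 0 with miR-130a-3p, let-7e-5p and let-7d-3p. With signals raised to background, or with the 6 genes above background only, it was 0 with let-7d-3p and miR-130a-3p. Raised to background, the log2 ratio of IL31RA was 0.22 with let-7d-3p and 0.003 with miR-130a-3p, and that of CCL17 with miR-130a-3p was -0.14. At 2-fold it was 0 with miR-151a-3p, miR-130a-3p, let-7e-5p and let-7d-3p. At 1.3-fold it was 3 with miR-151a-3p (26.2% of all named genes passed), 3 with miR-130a-3p (23.9%), 2 with miR-146a-5p (21.7%), 2 with let-7e-5p (20.7%) and 1 with let-7d-3p (23.7%). CRLF2 with miR-151a-3p was past 1.5-fold under every alternative but the 2-fold threshold, with a log2 ratio between -0.990 and -0.607. OSMR with let-7e-5p fell below 1.5-fold against the other mimics (0.44) and with the pseudocount (0.436). The median of the 10 genes stayed between -0.167 and 0.110 in all alternatives and mimics. Other causes of these shifts were not tested.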
